A study of Mus musculus with 35 samples.

Results

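CD8 T cells of liver and spleen from mice on the diet labelled ND (normal diet) were compared across all genes, the liver cells sorted as CXCR6pos and the spleen cells as CX3CR1neg. The comparison used 11 of the 35 samples of the series, 6 liver CXCR6pos and 5 spleen CX3CR1neg libraries, taken by their labels. Spleen replicate 6 was left out for its counts, as given below, and the groups and gene lists were chosen knowing earlier results of these data. All 11 samples came from C57BL/6 mice aged 13 months, with no other treatment or genetic change in the labels. The rest of the series holds the CXCR6neg liver fraction on ND and the same 3 fractions on a second diet, CD-HFD. The assay was bulk 3′-end sequencing of polyadenylated RNA from sorted cells. Tissue, sort gate and handling all differ between the groups and cannot be told apart, and in bulk samples fewer cells of a type and less RNA per cell cannot be told apart either. Nothing in the labels ties a replicate to an animal of its own, so p-values reflect the spread between these libraries, which may be technical.

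CD8 T cells kill infected or transformed cells and release cytokines after their T cell receptor is engaged. Naive and central memory cells circulate through spleen and lymph nodes, guided by CCR7 and the egress receptor S1PR1, whereas resident memory cells stay in a tissue. CXCR6 is the receptor for CXCL16, a chemokine displayed in liver sinusoids, and is carried by CD8 T cells that stay there. CX3CR1, the receptor for fractalkine, marks circulating effector cells with high killing capacity, so the spleen gate without it leaves naive and memory cells.

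The label of CD8 T cells was checked on marker genes. Cd8a and Cd8b1, which code for the chains of CD8, and Cd3e, a chain of the CD3 complex, were present in every library. Cd8b1 ran from 1132 to 2692 CPM in liver (median 2056) and was at 2012, 2015, 1897, 1897 and 2019 CPM in the spleen libraries. Its ranges overlapped and the difference did not pass (log2 fold change 0.09 ± 0.10, adjusted p = 0.672). Cd8a averaged 1349 ± 322 against 1012 ± 59.7 CPM (log2 fold change 0.50 ± 0.11, adjusted p = 0.00018) and Cd3e 1099.9 ± 211 against 895 ± 54.7 CPM (log2 fold change 0.35 ± 0.10, adjusted p = 0.00628), both slightly higher in liver. Levels are library-size-scaled counts (TMM-scaled CPM) throughout, a mean ± SD of the 6 liver libraries is given before that of the 5 spleen libraries, and a log2 fold change is liver CXCR6pos over spleen, ± its standard error (SE). This SE was derived from the test, as the absolute log2 fold change divided by the square root of the F statistic. Every adjusted p is a Benjamini-Hochberg adjusted p over all genes tested with edgeR's quasi-likelihood test, and genes described as higher or lower passed 0.05. Total counts ran from 15633 to 494700 in liver and from 169106 to 688547 in spleen. Liver replicate 1 was the shallowest library of the series, with 4329 genes detected. A further spleen library, replicate 6, held the same count for every gene as a liver CXCR6neg library and was left out.

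Of the genes behind the gates, Cx3cr1 separated the groups and Cxcr6 did not do so in every library. Cxcr6 (chromosome 9, 123806475 to 123811760, plus strand) ran from 201 to 812 CPM in liver (median 499) and was at 175, 169, 183, 221 and 257 CPM in the spleen libraries. The library labelled liver replicate 6 lay inside the spleen range, and every other liver library lay above it. Cxcr6 was higher in liver (log2 fold change 1.45 ± 0.31, adjusted p = 0.00162), and the spleen fraction, whose label names CX3CR1 alone, held the transcript in every library. Cx3cr1 (chromosome 9, 119901616 to 120069879, minus strand) ran from 71.0 to 197 CPM in liver (median 132) and was at 2.62, 10.2, 7.17, 7.67 and 31.3 CPM in the spleen libraries. All liver libraries lay above all spleen libraries (log2 fold change 3.72 ± 0.32, adjusted p = 1.75e-16), as the gate of the spleen cells fixes in advance, so this is a description of the sort. Liver replicate 6 also stood apart in genes of other cells: Cd74, the invariant chain of MHC class II, was at 747 CPM there and between 49.2 and 82.9 in the other liver libraries. Siglech, a lectin of plasmacytoid dendritic cells, was at 133 CPM there and at most 6.68 in the others. The CXCR6neg liver libraries on ND held Cxcr6 at 40.0 to 450 CPM, overlapping the CXCR6pos range, and Cx3cr1 at 46.7 to 159 CPM, above all spleen libraries.

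Across the 6174 genes tested, 459 (7.43%) were higher and 431 (6.98%) lower in liver CXCR6pos at an adjusted p under 0.05 by edgeR's quasi-likelihood test. These shares are the background for the counts of list members below. The differences were lopsided in size, since 68 of the higher genes but 22 of the lower genes differed more than 4-fold. The libraries of the groups did not overlap for 154 genes (2.49%) in the higher direction and 204 (3.3%) in the lower. The median log2 fold change over all tested genes was -0.01. Leaving out liver replicates 1 and 6 together, an alternative added after seeing the data, gave 461 higher and 386 lower genes, of which 412 and 341 were among those above. When only these groups were fitted and libraries were blocked by their number, liver replicate 6 having no partner, 301 were higher and 274 lower, and requiring a fold over 1.5 left 148 and 53.

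**Figure D1:**
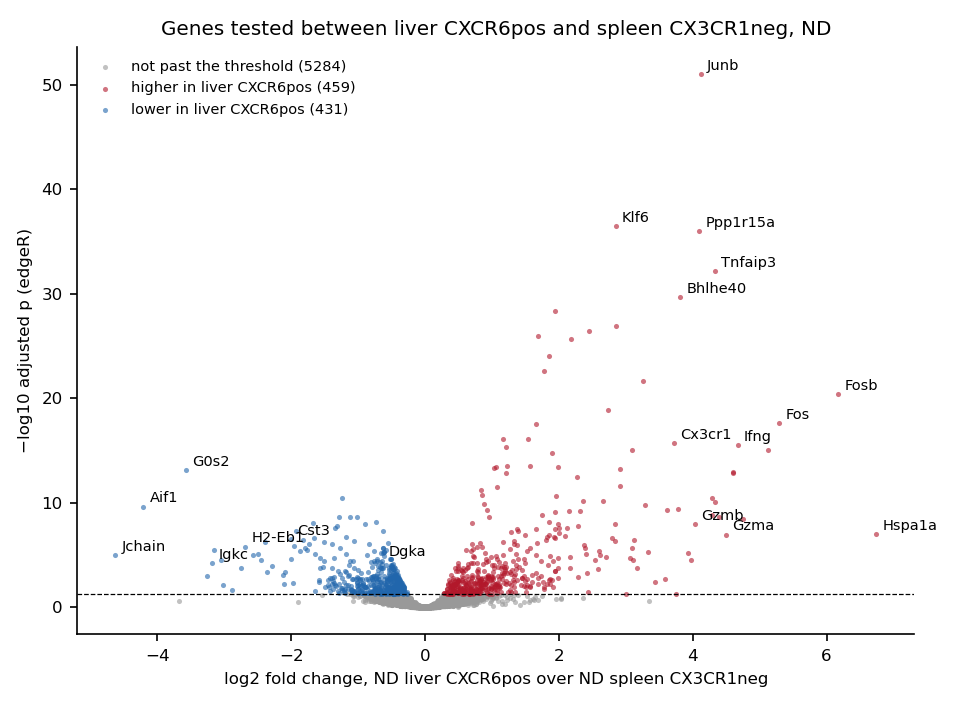
Each point is one of the 6174 genes tested, with its log2 fold change of ND liver CXCR6pos over ND spleen CX3CR1neg on the x axis and the −log10 of its adjusted p on the y axis, where the dashed line is an adjusted p of 0.05. Junb has the smallest p, and the points farthest to the right are Hspa1a, Fosb, Fos and Jun.

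Immediate-early genes gave the most higher genes of any list. They are transcribed within minutes of a signal without new protein synthesis, and they are known to respond to T cell receptor engagement and to the dissociation of tissue alike. Of the 44 genes listed, 33 of 36 tested members were higher and 0 lower (median log2 fold change 2.27). Summed over the list, liver libraries held 12654 to 22265 CPM and spleen libraries 2542 to 2739.8 CPM. The CXCR6neg liver libraries on ND, sorted from the same tissue, held 17807 to 21137 CPM. The labels do not describe how cells were freed from either tissue, so handling and tissue cannot be told apart here.

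FOS and JUN proteins pair to form the transcription factor AP-1. Junb (chromosome 8, 84974484 to 84978718, minus strand) ran from 5859 to 9358 CPM in liver (median 7863) and was at 466, 444, 419.5, 456 and 433 CPM in the spleen libraries. The lowest liver library lay far above the highest spleen library (log2 fold change 4.12 ± 0.12, adjusted p = 8.76e-52), a 17.4-fold difference. Fos (chromosome 12, 85473890 to 85477273, plus strand) ran from 369 to 842 CPM in liver (median 578) and was at 28.8, 5.12, 14.3, 13.8 and 18.8 CPM in the spleen libraries, again without overlap (log2 fold change 5.30 ± 0.26, adjusted p = 2.22e-18). Jun (chromosome 4, 95049034 to 95052222, minus strand) ran from 459 to 1005 CPM in liver (median 606) and was at 23.6, 17.1, 28.7, 16.9 and 18.8 CPM in the spleen libraries. Its groups were likewise separate (log2 fold change 5.12 ± 0.27, adjusted p = 9.18e-16). Fosb was nearly absent from spleen, with 2 counts over the spleen and 161 over the liver libraries, a ratio of 99.7 per library size (exact 95% counting interval 27.2 to 830.4). This interval and those below cover counting error only. Jund (1.98 ± 0.21) and Fosl2 (2.15 ± 0.28) were higher by less. In the CXCR6neg liver libraries Junb was at 7238 to 9158 CPM and Fos at 528 to 714 CPM, within the CXCR6pos range.

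The NR4A orphan receptors, which respond to T cell receptor signals, followed the same pattern. Nr4a1 (chromosome 15, 101254269 to 101274795, plus strand) ran from 295 to 700.2 CPM in liver (median 643) and was at 47.1, 23.9, 25.1, 13.8 and 18.8 CPM in the spleen libraries. The groups did not overlap (log2 fold change 4.60 ± 0.28, adjusted p = 1.42e-13). Nr4a2 averaged 143 ± 71.2 against 9.30 ± 5.99 CPM (log2 fold change 4.28 ± 0.38, adjusted p = 3.51e-11). Egr1, a zinc finger factor of the same response, averaged 162 ± 105 against 20.1 ± 14.2 CPM (log2 fold change 3.28 ± 0.31, adjusted p = 1.63e-10). Feedback genes of kinase signalling were higher too. Dusp1, a phosphatase that switches off MAP kinases, ran from 542 to 1056 CPM in liver (median 837) and was at 44.5, 17.1, 39.4, 38.4 and 37.6 CPM in the spleen libraries. Every liver library was above every spleen library (log2 fold change 4.60 ± 0.27, adjusted p = 1.16e-13), and Dusp2 (2.83 ± 0.34) and Dusp5 (3.09 ± 0.30) were higher as well. Ppp1r15a, a subunit that restores translation after stress, ran from 345 to 899.7 CPM in liver (median 734) and was at 55.0, 39.3, 43.0, 33.8 and 56.4 CPM in the spleen libraries. Every liver library was far above the spleen libraries (log2 fold change 4.09 ± 0.17, adjusted p = 1.02e-36). Gadd45b (3.26 ± 0.24), Klf6 (2.85 ± 0.13) and Csrnp1 (2.74 ± 0.23) were higher too. Genes that shorten the life of mRNA or hold cells quiescent were higher by less: Btg1 (1.58 ± 0.16), Btg2 (1.85 ± 0.13), Zfp36 (1.78 ± 0.13) and Zfp36l2 (1.66 ± 0.33). Of the list, only Myc (-0.27 ± 0.16), Mcl1 (-0.16 ± 0.22) and Dusp10 (0.84 ± 0.33) among the tested members did not pass, and Dusp10 passed when 1 liver library was left out (adjusted p from 0.0367 to 0.0443 without liver replicate 5 or 6).

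Many promoters of this class bind CREB at the cAMP response element, whose letters are TGACGTCA. In the RefSeq windows of 300 bases, from 250 before to 50 after a start, 4 of 47 promoters of 34 matched immediate-early genes held these letters on either strand (8.51%), beside 1.79% of all 32851 promoters. The AP-1 letters TGANTCA were in 2 of the 47 (4.26%, beside 7.81%). These matches are descriptions of the letters and not of binding. The stretches of 250 bases before the start of the 3 of these genes that were tested are shown (GRCm38.p6, 5′ to 3′, capitals mark TGACGTCA). All 3 were higher in liver, but so were 33 of the 36 tested members of the whole list, and a link to the element was not tested. For Dusp1 the stretch is chr17:26508473-26508722 on the minus strand and the match begins 143 bases before the start. For Ppp1r15a the stretch is chr7:45526269-45526518 on the minus strand and the match begins 12 bases before the start. For Btg2 the stretch is chr1:134079156-134079405 on the minus strand and the match begins 166 bases before the start.
Dusp1: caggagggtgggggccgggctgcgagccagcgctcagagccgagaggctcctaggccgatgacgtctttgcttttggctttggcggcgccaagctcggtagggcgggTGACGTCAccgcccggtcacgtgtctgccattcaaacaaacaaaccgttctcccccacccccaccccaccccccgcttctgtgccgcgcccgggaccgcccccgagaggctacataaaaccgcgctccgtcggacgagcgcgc
Ppp1r15a: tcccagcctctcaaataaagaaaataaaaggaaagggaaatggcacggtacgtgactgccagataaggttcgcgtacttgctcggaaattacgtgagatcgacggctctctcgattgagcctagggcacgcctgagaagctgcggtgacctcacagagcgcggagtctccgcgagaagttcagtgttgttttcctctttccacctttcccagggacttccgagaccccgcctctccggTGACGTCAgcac
Btg2: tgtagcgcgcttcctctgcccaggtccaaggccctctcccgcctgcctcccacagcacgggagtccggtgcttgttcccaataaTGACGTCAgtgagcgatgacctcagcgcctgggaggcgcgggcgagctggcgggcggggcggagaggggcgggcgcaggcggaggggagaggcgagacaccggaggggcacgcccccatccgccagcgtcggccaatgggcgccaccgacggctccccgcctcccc

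Heat-shock proteins fold damaged proteins, and the inducible ones are transcribed by HSF1. Of 22 listed genes, 6 of 18 tested members were higher and 0 lower (median log2 fold change 0.25). Hspa1a, the inducible HSP70 (chromosome 17, 34969190 to 34972156, minus strand), ran from 106 to 621 CPM in liver (median 498) and was at 5.24, 0, 0, 4.60 and 6.27 CPM in the spleen libraries. It had the largest fold change of all named genes (log2 fold change 6.75 ± 0.74, adjusted p = 9.82e-08), with liver replicates 5 and 6 well below the other liver libraries and still above all of spleen. In the CXCR6neg liver libraries Hspa1a was at 152 to 280 CPM. Its neighbour Hspa1b (51 counts over the liver and 3 over the spleen libraries) is a near-identical copy, so the split of counts between them is uncertain. The co-chaperones Dnajb1 (454 ± 133 against 113 ± 34.1 CPM, 1.94 ± 0.23) and Dnajb4 (1.83 ± 0.51) and the chaperone Hsp90aa1 (1.16 ± 0.19) were higher. The mitochondrial chaperones Hspd1 (-0.21 ± 0.15) and Hspe1 (-0.19 ± 0.12) did not pass. Of the genes of endoplasmic reticulum chaperones and the integrated stress response, 5 of 17 tested members were higher and 1 lower (median log2 fold change 0.12). The chaperone BiP gene Hspa5 (844 ± 57.7 against 374 ± 48.2 CPM, 1.21 ± 0.11), Atf4 (1.54 ± 0.14), the main transcription factor of that response, and Dnajb9 (1.96 ± 0.23) were higher, and Ddit4 (-0.91 ± 0.26), an inhibitor of mTOR signalling, was lower, a call lost without liver replicate 6 (adjusted p = 0.0587 without liver replicate 6).

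The heat-shock element was searched on both strands as the core GAANNTTC followed, after 2 bases of any kind, by another GAA, and was in 7 of 25 promoter windows of 18 matched heat-shock genes (28%, beside 0.603% of all promoters). The core alone, which lies inside the longer pattern, was in 13 (52%, beside 7.86%). In the 250 bases before its start Hspa1a held the core without the longer pattern, while Hspd1 and Hspe1, which did not pass the test, held the longer pattern in the stretch they share between their opposed starts. The bases before the starts of Hspa1a, with the core in capitals, and of Hspe1, with 1 match of the longer pattern in capitals, are shown as this pair (GRCm38.p6, 5′ to 3′). For Hspa1a the stretch is chr17:34972157-34972406 on the minus strand and the match begins 104 bases before the start. For Hspe1 the stretch is chr1:55087898-55088147 on the plus strand and the match begins 89 bases before the start.
Hspa1a: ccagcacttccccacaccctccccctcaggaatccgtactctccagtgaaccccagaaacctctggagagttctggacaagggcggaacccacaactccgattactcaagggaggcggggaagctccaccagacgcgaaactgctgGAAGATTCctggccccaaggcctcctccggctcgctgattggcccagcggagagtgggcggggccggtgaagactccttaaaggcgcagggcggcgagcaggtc
Hspe1: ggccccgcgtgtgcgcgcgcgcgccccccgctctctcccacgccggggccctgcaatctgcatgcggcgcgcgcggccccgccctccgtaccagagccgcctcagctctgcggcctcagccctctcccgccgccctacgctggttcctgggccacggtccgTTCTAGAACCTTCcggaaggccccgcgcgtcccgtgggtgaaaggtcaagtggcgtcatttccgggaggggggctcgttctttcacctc

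NF-kB is held in the cytoplasm by inhibitors that are themselves NF-kB targets, so their transcripts serve as readouts of the pathway. Of the genes of NF-kB and its feedback, 9 of 22 tested members were higher and 2 lower (median log2 fold change 0.25). Tnfaip3, the deubiquitinase A20 (chromosome 10, 19000910 to 19015657, minus strand), ran from 643 to 923 CPM in liver (median 843) and was at 60.2, 30.7, 32.3, 27.6 and 75.2 CPM in the spleen libraries. The groups were far apart (log2 fold change 4.34 ± 0.18, adjusted p = 6.89e-33). Nfkbia, the inhibitor IκBα, averaged 522 ± 97.0 against 256 ± 39.8 CPM (log2 fold change 1.08 ± 0.12, adjusted p = 3.16e-12), and Nfkbid (1.99 ± 0.23) and Nfkbiz (1.86 ± 0.26) were higher. Of the subunits, Rel was higher (log2 fold change 0.80 ± 0.29, adjusted p = 0.0441), with the call lost when any 1 of 6 libraries was left out (adjusted p from 0.0548 to 0.137 without liver replicate 2, 3 or 4 or spleen replicate 1, 3 or 4), whereas Nfkb1 (0.30 ± 0.41), Nfkb2 (-0.09 ± 0.25), Rela (0.20 ± 0.16) and Relb (-0.19 ± 0.23) did not pass. The Rel call was also lost by DESeq2 and with no filter on low counts. Cd83 (-3.04 ± 0.59), a surface protein of activated lymphocytes and dendritic cells, and the adaptor Traf1 (-0.43 ± 0.13) were lower in liver, the latter not without liver replicate 6 (adjusted p = 0.0705 without liver replicate 6).

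**Figure D2:**
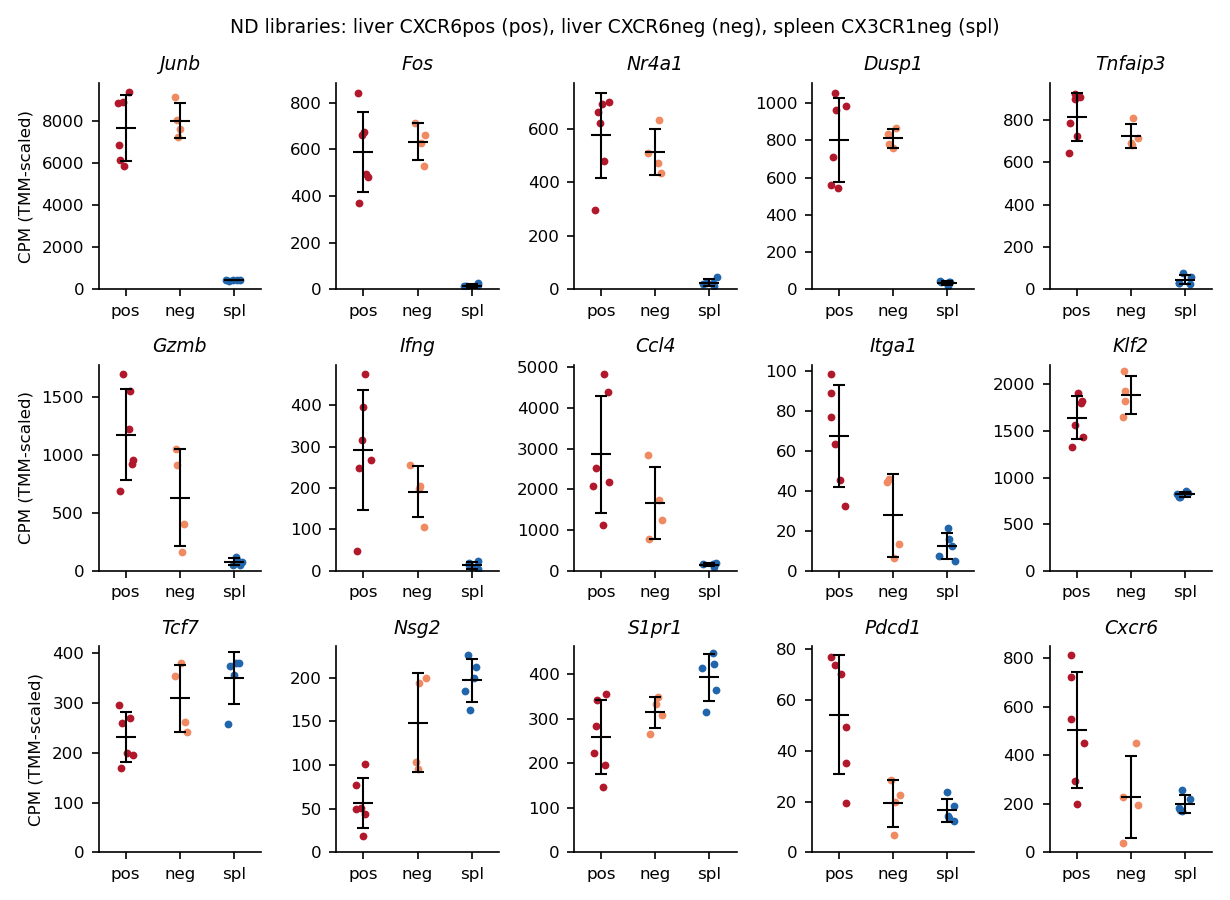
Each panel plots one gene in TMM-scaled CPM, with a point per ND library of liver CXCR6pos (pos, 6), liver CXCR6neg (neg, 4) and spleen CX3CR1neg (spl, 5), and the mean and SD in black. For Junb, Fos, Nr4a1, Dusp1 and Tnfaip3 both liver fractions sit far above spleen, whereas for Tcf7, S1pr1 and Cxcr6 the libraries of the groups overlap.

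Chemokine and cytokine genes were among the largest differences. Of the chemokine and cytokine genes, 10 of 17 tested members were higher and 3 lower (median log2 fold change 1.15). Ccl4 and Ccl3 code for chemokines that draw in other leukocytes. Ccl4 ran from 1132 to 4834 CPM in liver (median 2358) and was at 141, 99.0, 197, 159.6 and 176 CPM in the spleen libraries. No liver library came near the spleen range (log2 fold change 4.34 ± 0.34, adjusted p = 8.73e-11), and Ccl3 averaged 809 ± 557 against 37.1 ± 12.4 CPM (log2 fold change 4.75 ± 0.44, adjusted p = 3.7e-09). Ifng, interferon gamma (chromosome 10, 118441046 to 118445892, plus strand), ran from 49.2 to 474 CPM in liver (median 291) and was at 18.3, 8.54, 3.59, 13.8 and 25.1 CPM in the spleen libraries. Liver replicate 1, the shallowest library, was the lowest and still above all spleen libraries (log2 fold change 4.67 ± 0.29, adjusted p = 2.95e-16). Tnf averaged 245 ± 116 against 14.8 ± 9.98 CPM (log2 fold change 4.29 ± 0.39, adjusted p = 1.57e-09). In the CXCR6neg liver libraries Ccl4 ran from 794 to 2855 CPM, Ccl3 from 140 to 613 CPM and Ifng from 107 to 255 CPM, all above spleen. Ccl5, a chemokine stored by memory cells, was abundant in both groups, at 23492 ± 3589.5 against 15450.3 ± 2211 CPM, and was 1.53-fold higher in liver (log2 fold change 0.61 ± 0.10, adjusted p = 3.37e-06). Xcl1, which draws cross-presenting dendritic cells, was higher too (1.29 ± 0.26), while Il16 (-0.56 ± 0.14) and Mif (-0.41 ± 0.12) were lower.

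Granzymes enter target cells through pores of perforin and trigger their death. Of the cytotoxic genes, 11 of 22 tested members were higher and 1 lower (median log2 fold change 0.55). Gzmb (chromosome 14, 56258838 to 56262260, minus strand) ran from 689 to 1696 CPM in liver (median 1092) and was at 52.4, 52.9, 78.9, 95.1 and 119 CPM in the spleen libraries. The lowest liver library was several times the highest spleen library (log2 fold change 4.03 ± 0.40, adjusted p = 1.04e-08). Gzma (chromosome 13, 113093825 to 113100981, minus strand) ran from 501 to 1046 CPM in liver (median 741) and was at 52.4, 27.3, 21.5, 29.2 and 56.4 CPM in the spleen libraries, with no overlap (log2 fold change 4.50 ± 0.50, adjusted p = 1.08e-07). Gzmm went the other way, at 111 ± 57.7 against 291 ± 38.9 CPM (log2 fold change -1.30 ± 0.25, adjusted p = 0.000339), and Gzmk was at 254 ± 103 against 129.6 ± 25.1 CPM and did not pass (log2 fold change 0.97 ± 0.35, adjusted p = 0.0623), but did so without liver replicate 5 or 6 (adjusted p from 0.03 to 0.0323 without liver replicate 5 or 6) and by DESeq2 (adjusted p = 0.02). It also passed with only these groups fitted and the replicate block (adjusted p = 8.89e-11), but the labels give no pairing behind that block. Prf1, perforin, was at 207 ± 49.3 against 182 ± 42.4 CPM and did not pass (log2 fold change 0.20 ± 0.14, adjusted p = 0.413). Fasl, which kills through the death receptor FAS, averaged 362 ± 69.8 against 60.8 ± 10.7 CPM (log2 fold change 2.45 ± 0.16, adjusted p = 3.3e-27), and Klrg1, a receptor of terminal effector cells, 72.9 ± 42.7 against 10.5 ± 6.78 CPM (log2 fold change 3.16 ± 0.57, adjusted p = 0.000178). The granule proteins Srgn (1.06 ± 0.11) and Nkg7 (0.49 ± 0.10) and the granzyme inhibitor gene Serpinb9 (0.94 ± 0.22) were higher by less. In the CXCR6neg liver fraction Gzmb ran from 160.1 to 1052 CPM, Gzma from 173 to 1017 CPM and Fasl from 172 to 294 CPM, all above the spleen libraries. Liver CXCR6neg libraries were compared with the same spleen libraries, so these 2 comparisons share their controls.

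Tissue residency is tied to the integrin chain CD49a, to CD69, which blocks the egress receptor, and to a set of transcription factors. Of the residency list, 16 of 20 tested members were higher and 1 lower (median log2 fold change 2.28). Several of its members are also on the immediate-early list, among them Cd69, Rgs1, Rgs2, Nr4a1 and Nr4a2. Itga1, which codes for CD49a (chromosome 13, 114953096 to 115101964, minus strand), ran from 32.4 to 98.5 CPM in liver (median 70.3) and was at 15.7, 5.12, 21.5, 7.67 and 12.5 CPM in the spleen libraries. The groups did not overlap (log2 fold change 2.37 ± 0.39, adjusted p = 1.04e-06), and the CXCR6neg libraries, at 6.67 to 46.0 CPM, reached down into the spleen range. Cd69 ran from 345 to 531 CPM in liver (median 431) and was at 68.1, 116, 115, 95.1 and 107 CPM in the spleen libraries, also without overlap (log2 fold change 2.18 ± 0.14, adjusted p = 2.25e-26). Bhlhe40, a transcription factor that sustains mitochondrial function in resident cells, ran from 98.5 to 424 CPM in liver (median 343) and was at 10.5, 18.8, 39.4, 27.6 and 37.6 CPM in the spleen libraries (log2 fold change 3.81 ± 0.20, adjusted p = 2.03e-30). The CXCR6neg liver libraries held Cd69 at 368 to 467 CPM and Bhlhe40 at 257 to 373 CPM, within the CXCR6pos ranges. Over all genes tested, 2 differed between the CXCR6pos and CXCR6neg liver libraries on ND (adjusted p under 0.05, edgeR's quasi-likelihood test). Rgs1, which damps chemokine receptor signals, averaged 464 ± 143 against 35.5 ± 10.1 CPM (log2 fold change 3.78 ± 0.31, adjusted p = 3.54e-10). P2rx7, a channel gated by extracellular ATP, averaged 25.6 ± 18.6 against 7.52 ± 9.88 CPM (log2 fold change 2.59 ± 0.55, adjusted p = 0.00021). Adgrg1, an adhesion receptor, had few counts, with 1 count over the spleen and 15 over the liver libraries, a ratio of 18.6 per library size (exact 95% counting interval 2.86 to 782). Of RGS and G protein signalling genes, 8 of 19 tested members were higher and 1 lower (median log2 fold change 0.56), and of purinergic receptors and their enzymes, 4 of 8 tested members were higher. Crtam was the 1 residency member that was lower (-0.74 ± 0.23), a call that 2 libraries decided (adjusted p from 0.0505 to 0.0545 without liver replicate 3 or spleen replicate 1). Runx3 (-0.03 ± 0.16) and Prdm1 (1.01 ± 0.41) did not pass, the latter except without liver replicate 5 (adjusted p = 0.0402 without liver replicate 5). Itgae, the CD103 chain of resident cells of epithelia, was not tested for want of counts, with 22 counts over the liver and 43 over the spleen libraries, and Zfp683, which codes for HOBIT, had 21 counts over the liver and 1 over the spleen libraries.

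Among transcription factors of effector and memory cells, 8 of 22 tested members were higher and 1 lower (median log2 fold change 0.49). Id2, which favours effector over memory precursor fate, averaged 961 ± 153 against 412 ± 124 CPM (log2 fold change 1.30 ± 0.24, adjusted p = 0.000242), and its counterpart Id3 was lower at 31.4 ± 14.8 against 105 ± 14.3 CPM (log2 fold change -1.92 ± 0.27, adjusted p = 5.48e-08). Zeb2, a transcription factor that promotes terminal effector cells, averaged 39.7 ± 32.6 against 8.70 ± 6.94 CPM (log2 fold change 2.79 ± 0.43, adjusted p = 2.11e-07). Rora (2.01 ± 0.30), Nfil3 (1.69 ± 0.47) and Runx1 (1.36 ± 0.28) were higher. Eomes, a T-box factor of memory cells, was lower (log2 fold change -0.75 ± 0.25, adjusted p = 0.033), a call lost when any 1 of 4 libraries was left out (adjusted p from 0.0933 to 0.212 without liver replicate 4 or 5 or spleen replicate 1 or 4). The Eomes call was also lost by DESeq2, with only the ND groups fitted and with the replicate block. Tbx21, which codes for T-bet, did not pass (log2 fold change 0.34 ± 0.14, adjusted p = 0.089) except without liver replicate 2 (adjusted p = 0.0477 without liver replicate 2). Gcnt2, a glycosyltransferase gene on no list, averaged 41.4 ± 28.2 against 2.17 ± 3.04 CPM (log2 fold change 4.39 ± 0.59, adjusted p = 2.16e-09). With the replicate block the number of higher members in the list of factors was 5.

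Of the egress and recirculation list, 2 of 21 tested members were higher and 8 lower (median log2 fold change -0.24), beside 7.43% and 6.98% of all genes tested. The share of higher members is near that background. S1pr1 ran from 148 to 355 CPM in liver (median 254) and was at 314, 413, 448, 424 and 364 CPM in the spleen libraries. The ranges overlapped and the difference was small (log2 fold change -0.49 ± 0.13, adjusted p = 0.00286). Ccr7 ran from 119 to 528 CPM in liver (median 313) and was at 236, 312, 337, 270.1 and 188 CPM in the spleen libraries. Its spleen range lay within that of liver and the difference did not pass (log2 fold change 0.19 ± 0.28, adjusted p = 0.748). Klf2, the transcription factor that drives S1pr1, was higher in liver, not lower. It ran from 1329 to 1912 CPM in liver (median 1679.9) and was at 796, 792, 832, 861 and 828 CPM in the spleen libraries. All liver libraries were above all spleen libraries (log2 fold change 1.03 ± 0.11, adjusted p = 5e-14), and the CXCR6neg liver libraries were at 1654 to 2146 CPM. S1pr5, the egress receptor of effector cells, was also higher (68.2 ± 49.6 against 46.6 ± 6.43 CPM, log2 fold change 0.84 ± 0.26, adjusted p = 0.0151), but not without liver replicate 6 or spleen replicate 1 (adjusted p from 0.052 to 0.205 without liver replicate 6 or spleen replicate 1). Its call was also lost by DESeq2 and with the replicate block. Dgka (-0.64 ± 0.12), Sidt1 (-1.29 ± 0.17), Cmah (-1.13 ± 0.22) and Ms4a4c (-1.12 ± 0.19) were lower with no overlap between the groups.

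Of the naive and stem-like list, 1 of 25 tested members were higher and 13 lower (median log2 fold change -0.63). Tcf7, which codes for TCF1, a factor of naive and self-renewing T cells (chromosome 11, 52252371 to 52283014, minus strand), ran from 170.4 to 295 CPM in liver (median 229) and was at 375, 357, 380.1, 381 and 257 CPM in the spleen libraries. The ranges overlapped (log2 fold change -0.67 ± 0.13, adjusted p = 4.78e-05). Lef1, its relative, was at 157 ± 56.5 against 246 ± 29.0 CPM (log2 fold change -0.83 ± 0.20, adjusted p = 0.00302), and Satb1, a chromatin organiser of naive cells, at 52.1 ± 22.6 against 123 ± 32.5 CPM (log2 fold change -1.27 ± 0.21, adjusted p = 2.24e-06). Nsg2 ran from 19.3 to 101 CPM in liver (median 49.8) and was at 212, 199.8, 226, 184 and 163 CPM in the spleen libraries. It was separate between the groups (log2 fold change -1.73 ± 0.24, adjusted p = 7.74e-07), as were Actn1 (-1.51 ± 0.29), Treml2 (-1.83 ± 0.29) and the costimulatory receptor Cd27 (-0.90 ± 0.13). Il7r, the receptor for the survival cytokine IL-7, was lower by less (log2 fold change -0.48 ± 0.15, adjusted p = 0.0204), and 4 libraries decided the call (adjusted p from 0.0504 to 0.074 without liver replicate 5 or 6 or spleen replicate 3 or 4). Foxo1 (-0.63 ± 0.29), Bcl2 (-0.22 ± 0.12) and Dapl1 (0.33 ± 0.43) did not pass, and Socs3 was the 1 member that was higher (0.89 ± 0.19). Dapl1 was split within liver and ran from 163 to 202 CPM in spleen. Liver replicates 1 to 4 lay below that range, at 49.2, 47.4, 48.2 and 16.7 CPM. Liver replicates 5 and 6 lay above it, at 576 and 332 CPM.

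Inhibitory receptors restrain T cells after activation and accumulate in exhausted cells. The list joins such receptors with other genes tied to exhaustion, and 11 of 26 tested members were higher and 2 lower (median log2 fold change 0.82). The transcription factors Id2, Bhlhe40 and Nr4a2 were among the higher and Eomes among the lower, and Nr4a2 is also on the immediate-early list. Pdcd1, which codes for PD-1 (chromosome 1, 94038305 to 94052553, minus strand), ran from 19.4 to 76.9 CPM in liver (median 59.7) and was at 23.6, 13.7, 14.3, 18.4 and 12.5 CPM in the spleen libraries. Liver replicate 5 lay inside the spleen range and the other liver libraries above it (log2 fold change 1.53 ± 0.41, adjusted p = 0.0076). Cd160 (243 ± 115 against 102 ± 24.1 CPM, 1.34 ± 0.28) and Entpd1, the ATP-degrading enzyme CD39 (66.6 ± 23.2 against 25.4 ± 8.58 CPM, 1.41 ± 0.29), were higher. Tigit averaged 18.4 ± 13.2 against 3.51 ± 3.52 CPM (log2 fold change 2.43 ± 0.80, adjusted p = 0.0365), a call lost when any 1 of 7 libraries was left out (adjusted p from 0.0537 to 0.108 without liver replicate 2, 3, 4 or 5 or spleen replicate 1, 2 or 3), and Lag3 had few counts, with 1 count over the spleen and 17 over the liver libraries, a ratio of 21.1 per library size (exact 95% counting interval 3.30 to 880.0). Btla was lower (log2 fold change -1.08 ± 0.35, adjusted p = 0.02), with 2 libraries deciding the call (adjusted p from 0.079 to 0.108 without liver replicate 4 or spleen replicate 3). Tox (73.1 ± 42.9 against 63.2 ± 13.5 CPM, log2 fold change 0.33 ± 0.28, adjusted p = 0.53), Havcr2 (6.16 ± 4.64 against 9.62 ± 2.20 CPM, log2 fold change -0.34 ± 0.63, adjusted p = 0.815) and Ctla4 (26.4 ± 17.7 against 12.5 ± 5.86 CPM, log2 fold change 1.32 ± 0.58, adjusted p = 0.144) did not pass. Ctla4 did pass with no filter on low counts (adjusted p = 0.0166) and when only the ND groups were fitted (adjusted p = 0.0222). When only these 2 groups were fitted, fewer members had enough counts to be tested and 6 were higher.

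**Figure D3:**
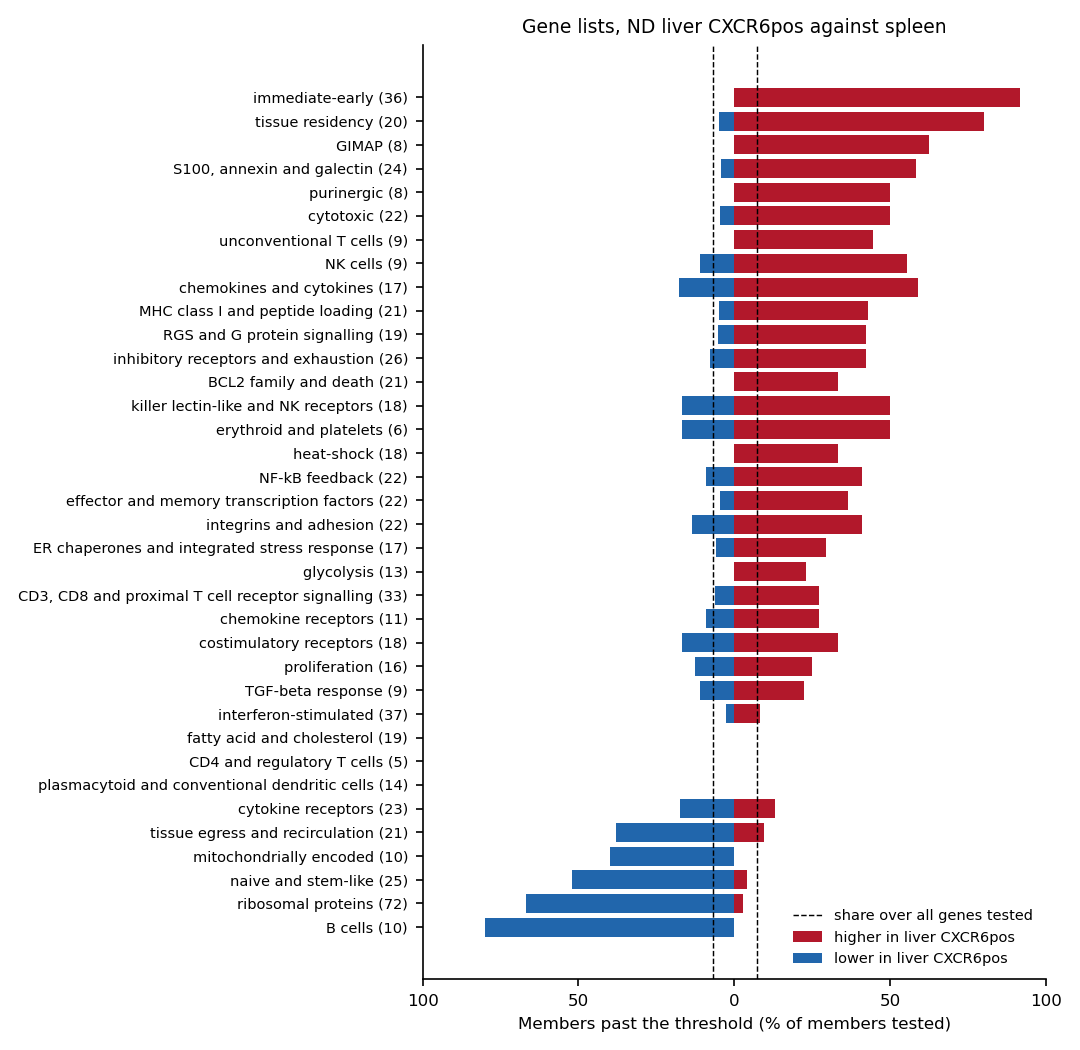
Bars give the share of the tested members of each gene list with at least 5 tested (number tested in parentheses) that were higher (right) or lower (left) in ND liver CXCR6pos than in ND spleen, in percent, and the dashed lines the shares over all genes tested, 7.43% and 6.98%. Immediate-early genes extend farthest to the right and B cell genes farthest to the left.

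Of chemokine receptors, the gate genes included, 3 of 11 tested members were higher and 1 lower (median log2 fold change 0.19). Cxcr5, which guides cells to B cell follicles, was lower at 24.6 ± 16.9 against 58.0 ± 20.1 CPM (log2 fold change -1.87 ± 0.32, adjusted p = 4.25e-06). Cxcr3, the receptor for interferon-induced chemokines, was at 337 ± 69.0 against 416 ± 31.0 CPM and did not pass (log2 fold change -0.26 ± 0.12, adjusted p = 0.147). Of the cytokine receptor list, 3 of 23 tested members were higher and 4 lower (median log2 fold change 0.09), beside 7.43% and 6.98% of all genes tested. The receptor chains for IL-6, Il6ra (-1.16 ± 0.30) and Il6st (-1.09 ± 0.27), were lower, Il2rb (-0.21 ± 0.11) did not pass, and Cish, a feedback inhibitor induced by STAT5, averaged 116 ± 63.7 against 18.7 ± 4.77 CPM (log2 fold change 2.91 ± 0.28, adjusted p = 6e-14).

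Killer lectin-like receptors split by member. Of the list, 9 of 18 tested members were higher and 3 lower (median log2 fold change 0.62). Klrk1, which codes for NKG2D, averaged 523 ± 82.3 against 263 ± 54.6 CPM (log2 fold change 1.09 ± 0.19, adjusted p = 0.000148) and its libraries did not overlap. Klrd1 (0.55 ± 0.14) and Klra9 (2.00 ± 0.28) were higher, whereas Klra6 (-2.12 ± 0.45) and Klra7 (-1.37 ± 0.33) were lower, with the reservation that Klra genes are similar in sequence and may share tags. Of the NK cell marker list, which shares genes with effector T cells, 5 of 9 tested members were higher and 1 lower (median log2 fold change 0.69), and Ncr1, its defining receptor, had no count in either group. Among integrins and adhesion genes, 9 of 22 tested members were higher and 3 lower (median log2 fold change 0.40). Itgal (0.82 ± 0.13) and Itgb2 (0.61 ± 0.16), the chains of LFA-1, were higher together, and so was Cd226 (1.75 ± 0.23). Among costimulatory receptors, 6 of 18 tested members were higher and 3 lower (median log2 fold change 0.32), with Slamf1 (2.28 ± 0.56) higher and Slamf6 (-1.02 ± 0.28), a marker of stem-like cells, lower. Of genes of unconventional T cells, 4 of 9 tested members were higher and 0 lower (median log2 fold change 0.97). The gamma constant gene Tcrg-C4, which shares sequence with its relatives, was among the higher (1.52 ± 0.38). Trdc, the delta constant gene, did not pass (log2 fold change 0.97 ± 0.60, adjusted p = 0.341).

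Of the genes of CD3, CD8 and proximal T cell receptor signalling, 9 of 33 tested members were higher and 2 lower (median log2 fold change 0.16). Trat1, a transmembrane adaptor, averaged 42.8 ± 40.8 against 12.9 ± 8.09 CPM (log2 fold change 2.17 ± 0.40, adjusted p = 1.58e-05) and Sh2d2a, another adaptor, was higher with no overlap (log2 fold change 1.20 ± 0.13, adjusted p = 1.27e-13), while Lck (-0.08 ± 0.10) and Zap70 (0.20 ± 0.13) did not pass. Of the calcium-binding, annexin and galectin genes that memory cells carry, 14 of 24 tested members were higher and 1 lower (median log2 fold change 0.38). Lgals3, galectin-3, averaged 368 ± 145 against 86.5 ± 32.0 CPM (log2 fold change 2.40 ± 0.32, adjusted p = 2.11e-06), and S100a4 (1.86 ± 0.41) and S100a6 (0.84 ± 0.19) were higher. The count for this list fell to 9 without liver replicate 5, to 9 without spleen replicate 4 and to 7 with the replicate block. Of GIMAP GTPases, 5 of 8 tested members were higher and 0 lower (median log2 fold change 0.46), and of MHC class I and peptide loading genes, 9 of 21 tested members were higher and 1 lower (median log2 fold change 0.27). With the block, 5 of the latter were higher.

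Of the fatty acid and cholesterol genes, 0 of 19 tested members were higher and 0 lower (median log2 fold change 0.16) by edgeR, with 3 at an unadjusted p under 0.05 and 0 by DESeq2. Of the interferon-stimulated genes, 3 of 37 tested members were higher and 1 lower (median log2 fold change 0.10), the former share near the background given above. Of glycolytic genes, 3 of 13 tested members were higher and 0 lower (median log2 fold change 0.14), and the glucose transporter Slc2a3 (1.08 ± 0.26) was among the higher. Of proliferation genes, 4 of 16 tested members were higher and 2 lower (median log2 fold change -0.14). Of genes of the BCL2 family and of cell death, 7 of 21 tested members were higher and 0 lower (median log2 fold change 0.07). The pro-apoptotic Pmaip1 (1.67 ± 0.27) and the pro-survival Bcl2a1b (1.81 ± 0.26) were both higher, and with the block 4 members were higher.

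Cytosolic ribosomal protein genes, which naive T cells express strongly, were lower by a small amount. Of them, 2 of 72 tested members were higher and 48 lower (median log2 fold change -0.41). Their summed level ran from 76467 to 112901 CPM in liver and from 117750.0 to 145470.0 CPM in spleen, without overlap. Rps20 (1938 ± 444 against 3191 ± 386 CPM, -0.74 ± 0.16) was among the lower, and Rps27 (1.19 ± 0.25) and Rpl10 (1.09 ± 0.31) were the 2 that were higher, Rpl10 not without liver replicate 6 (adjusted p = 0.0524 without liver replicate 6). Ribosomal protein genes have many near-identical pseudogene copies, so single members are uncertain. Of mitochondrially encoded genes, 0 of 10 tested members were higher and 4 lower (median log2 fold change -0.28), with mt-Cytb at 3034 ± 390.5 against 4541 ± 93.4 CPM (-0.55 ± 0.09).

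Several genes of MHC class II and of immunoglobulin chains were lower in liver. Cd74 ran from 49.2 to 747 CPM in liver (median 72.5) and was at 940.3, 1018, 1061, 852 and 1925 CPM in the spleen libraries. Liver replicate 6 was just below the lowest spleen library and the other liver libraries far below it (log2 fold change -2.36 ± 0.45, adjusted p = 0.000429). H2-Aa, a chain of MHC class II, ran from 30.1 to 312 CPM in liver (median 60.9) and was at 649.6, 685, 595, 531 and 959 CPM in the spleen libraries (log2 fold change -2.57 ± 0.37, adjusted p = 1.02e-05), and H2-Ab1 (-2.49 ± 0.36) and H2-Eb1 (-2.68 ± 0.35) followed. Igkc, the kappa light chain, ran from 67.9 to 148 CPM in liver (median 89.1) and was at 1037, 1074, 527, 560.1 and 520.4 CPM in the spleen libraries. Spleen replicates 1 and 2 were well above the other spleen libraries, and all liver libraries were below (log2 fold change -3.18 ± 0.52, adjusted p = 5.56e-05). Jchain, which joins IgA and IgM chains in plasma cells, ran from 0 to 13.4 CPM in liver (median 1.61) and was at 102, 123, 100.4, 107 and 18.8 CPM in the spleen libraries (log2 fold change -4.63 ± 0.67, adjusted p = 9.35e-06). Of the B cell list, 0 of 10 tested members were higher and 8 lower (median log2 fold change -2.53), and its summed level ran from 483 to 2307 CPM in liver, the highest being replicate 6, and from 4091 to 6213 CPM in spleen. Of its defining genes, Ms4a1 had 6 counts over the liver and 16 over the spleen libraries and Cd79a had 2 counts over the liver and 5 over the spleen libraries.

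Plbd1, a lysosomal phospholipase, was lower at 5.05 ± 8.83 against 68.2 ± 16.5 CPM (log2 fold change -3.16 ± 0.48, adjusted p = 3.31e-06), and Csf2ra, a chain of the GM-CSF receptor, 6.35 ± 5.93 against 35.7 ± 6.81 CPM (log2 fold change -2.29 ± 0.47, adjusted p = 0.000118). Aif1, which codes for the macrophage protein IBA1, was nearly absent from liver, with 3 counts over the liver and 85 over the spleen libraries, a ratio of 22.9 per library size (exact 95% counting interval 7.57 to 113). Cd81, a tetraspanin of B cells and activated cells, averaged 4.32 ± 4.92 against 30.9 ± 11.1 CPM (log2 fold change -2.45 ± 0.47, adjusted p = 3.22e-05), and G0s2, an inhibitor of lipolysis, ran from 0 to 10.1 CPM in liver (median 4.63) and was at 94.3, 87.1, 53.8, 67.5 and 69.0 CPM in the spleen libraries (log2 fold change -3.58 ± 0.37, adjusted p = 7.65e-14). The defining genes of the cross-presenting dendritic cells, which in mouse spleen carry CD8α, were sparse, with 0 counts over the liver and 16 over the spleen libraries for Clec9a and 3 counts over the liver and 24 over the spleen libraries for Xcr1. Adgre1, the F4/80 gene of macrophages, had no count in either group. The dendritic cell list held 246 CPM in liver replicate 1, 193 to 244 in replicates 2 to 5, 1834 in replicate 6 and 442 to 534 in spleen. By edgeR 0 of 14 tested members were higher and 0 lower, with 2 at an unadjusted p under 0.05 and 0 by DESeq2. The median log2 fold change was 1.21, although the summed level lay above spleen in liver replicate 6 alone. The part of such cells in these differences was not tested. A ribosomal RNA gene, n-R5-8s1, was also lower (6.35 ± 3.99 against 57.0 ± 22.8 CPM, -2.74 ± 0.53).

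Of the erythroid and platelet list, 3 of 6 tested members were higher and 1 lower (median log2 fold change 1.40). The member that was lower was Car2, the enzyme carbonic anhydrase 2, with 2 counts over the liver and 23 over the spleen libraries, a ratio of 9.28 per library size (exact 95% counting interval 2.29 to 81.2). That call was lost when any 1 of 4 libraries was left out (adjusted p from 0.0552 to 0.0727 without liver replicate 4, 5 or 6 or spleen replicate 2). Hba-a1, an alpha globin gene, ran from 591 to 1534 CPM in liver (median 989) and was at 458, 179, 251, 279 and 326 CPM in the spleen libraries. Liver libraries were above spleen (log2 fold change 1.85 ± 0.42, adjusted p = 0.00224), with Hba-a2 (1.77 ± 0.42) and the beta globin gene Hbb-bs (1.57 ± 0.43) alike. Hba-a1 and Hba-a2 are near-identical copies that may share tags. Hepatocyte genes summed to 96.4 to 345 CPM in liver, the highest in replicate 1, and 52.4 to 108 CPM in spleen, and Alb had 21 counts over the liver and 3 over the spleen libraries. Endothelial, stellate and fibroblast genes summed to at most 49.2 and 38.4 CPM, neutrophil genes to at most 8.63 and 2.62 CPM, and the Kupffer cell and macrophage list, of which 2 of 3 tested members were lower, to at most 50.3 and 119.5 CPM. Cd4 had 2 counts over the liver and 4 over the spleen libraries and Foxp3 0 counts over the liver and 11 over the spleen libraries.

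**Figure D4:**
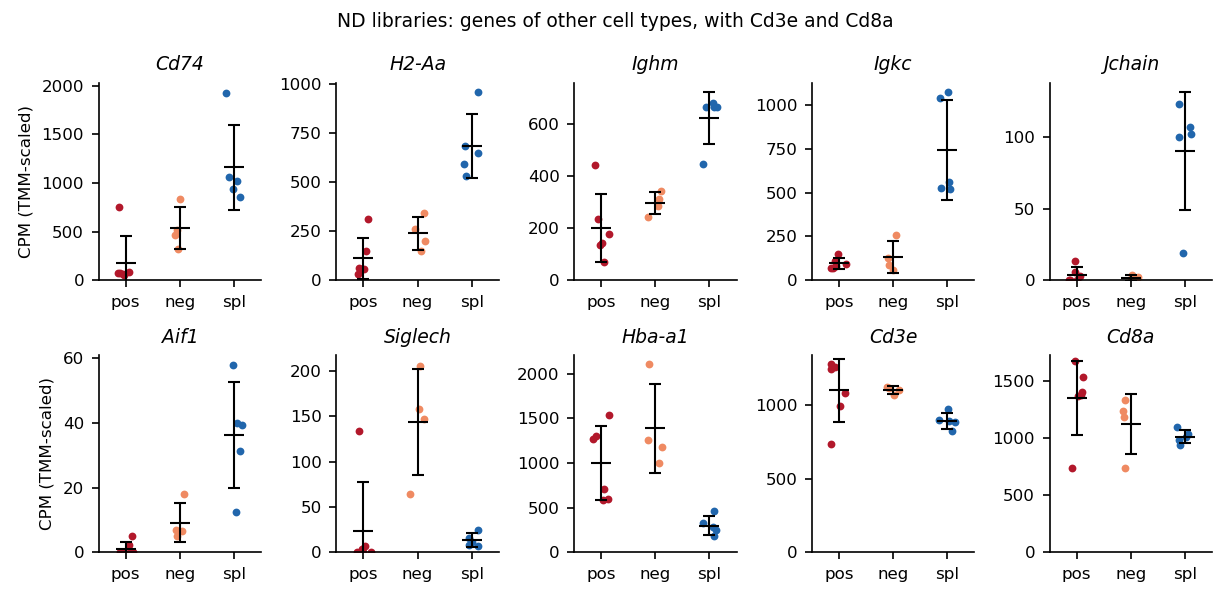
Panels plot genes of other cell types, with Cd3e and Cd8a of T cells, in TMM-scaled CPM, a point per ND library of liver CXCR6pos (pos, 6), liver CXCR6neg (neg, 4) and spleen CX3CR1neg (spl, 5), with the mean and SD in black and error bars cut at 0. The single high CXCR6pos point in Cd74, H2-Aa and Siglech is replicate 6.

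The difference between liver CXCR6pos and spleen was then set beside the same difference on CD-HFD, which uses other libraries for both groups. The difference was more positive on ND for 171 genes (2.77%) and more negative for 75 (1.21%), 3.98% in all. Of the egress and recirculation list, 13 of 21 were more positive on ND and 0 more negative. S1pr1 was at -0.49 ± 0.13 on ND and -2.38 ± 0.18 on CD-HFD (difference 1.88 ± 0.22, adjusted p = 2.65e-10), Ccr7 at 0.19 ± 0.28 and -2.59 ± 0.42 (difference 2.78 ± 0.51, adjusted p = 0.00112), and Klf2 at 1.03 ± 0.11 and -0.35 ± 0.12 (difference 1.39 ± 0.16, adjusted p = 5.35e-11). Of the list of inhibitory receptors and other exhaustion genes, 6 of 26 were more negative on ND and 1 more positive. Havcr2 was at -0.34 ± 0.63 on ND and 2.74 ± 0.36 on CD-HFD (difference -3.08 ± 0.74, adjusted p = 0.00539), and Pdcd1 at 1.53 ± 0.41 and 3.48 ± 0.22 (difference -1.95 ± 0.52, adjusted p = 0.0233). Of the immediate-early list, 9 of 36 were more positive on ND and 0 more negative. Fos was at 5.30 ± 0.26 and 2.98 ± 0.28 (difference 2.32 ± 0.46, adjusted p = 0.00124) and Tnf at 4.29 ± 0.39 and 0.85 ± 0.59 (difference 3.44 ± 0.73, adjusted p = 0.00477), whereas the difference did not pass for Nr4a1 (0.70 ± 0.49, adjusted p = 0.582) or Gzmb (0.07 ± 0.53, adjusted p = 0.983).

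**Figure D5:**
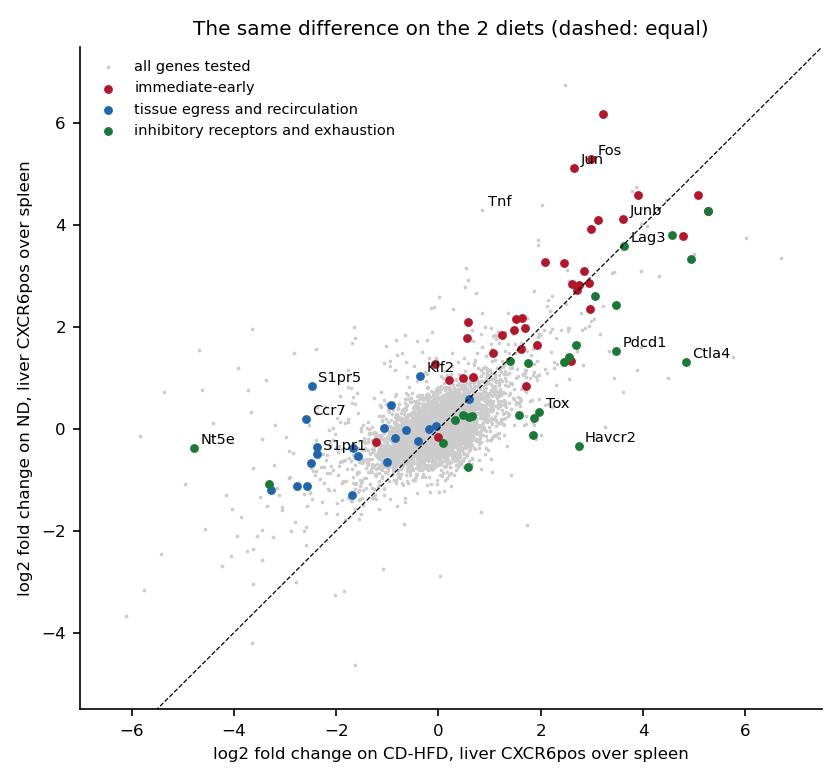
Each point is a gene, with its log2 fold change of liver CXCR6pos over spleen on CD-HFD (x axis) and on ND (y axis), and 3 gene lists in colour. Points above the dashed line were more positive on ND, as Fos, Jun, Tnf and S1pr5 were, and Havcr2, Ctla4, Pdcd1 and Tox lie below it.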

How the data were processed

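Sorted CD8 T cells were sequenced in bulk from the 3′ end, and the authors deposited whole-number counts per gene in 1 table. The submitters' processing notes name the build GRCm38.p6 and DESeq2 1.14.1. The library protocol in the labels adds molecular identifiers, but the aligner, the use of strand and whether molecules or reads were counted were not given in the sources used here, so genes that overlap on opposite strands cannot be told apart. Of the columns, 1 matched no sample and was not used. A spleen library and a CXCR6neg liver library with identical counts were both left out, which departs from the planned fit of all samples.

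Genes were tested with edgeR 4.0.16 in R 4.3.3 (TMM, filterByExpr, robust quasi-likelihood fit) over 32 libraries of 6 groups that share 1 estimate of the spread, with an adjusted p under 0.05 counted as passing. The common biological coefficient of variation was 0.122. On simulated counts for this comparison (6174 genes), 28.4% of genes changed 1.5-fold, 67.2% changed 2-fold and 100% changed 4-fold were recovered. Genes named were the 15 with the largest fold change in each direction among those whose higher group averaged 20 CPM or more (predicted models, pseudogenes and immunoglobulin segments left out), members of the gene lists, and the gate and CD8 genes. Some members of the lists are counted but not reported here by name. The groups and gene lists were chosen with earlier results of these data known. Alternatives were DESeq2 1.42.0, other size factors, filters and groups in the fit, a fold threshold, the replicate block, and leaving out libraries. Ratios of few counts have exact 95% intervals. Gene positions are from GENCODE M21 and promoters from RefSeq (GRCm38.p6).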

Additional observations from a re-analysis of the deposited data

Results flagged for a closer look

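Single libraries stood apart from the rest of their group, by Dixon's gap test at 95%, in 39 of 352 gene and group pairs tested. The rate of about 1 in 20 that this test allows assumes normally distributed values. Several of the values below rest on a lone count, so the share cannot be set against that rate. All values are TMM-scaled CPM on ND.

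Liver CXCR6pos replicate 1 was the highest library for Alb (98.5, next 16.1), Cd83 (49.2, next 11.8), Csf1 (49.2, next 11.8), Hspd1 (295, next 164), Iglc2 (49.2, next 13.4) and Rps27 (148, next 83.5). It was also the highest for Serpinb9 (197, next 107), Tcrg-C4 (197, next 50.1), Treml2 (49.2, next 29.6) and Xcr1 (49.2, next 5.92). Liver CXCR6pos replicate 1 was the lowest library for Bhlhe40 (98.5, next 313), Cd8a (739, next 1366), Itgb2 (98.5, next 539), Lck (689, next 1494) and Mif (98.5, next 260.2). Liver CXCR6pos replicate 3 was the highest library for Car2 (6.42, next 0) and Ms4a1 (12.8, next 4.31). Liver CXCR6pos replicate 6 was the highest library for Cd74 (747, next 82.9), H2-Ab1 (506, next 148), H2-Eb1 (153, next 35.5), Iglc3 (88.1, next 10.8), Plbd1 (22.6, next 4.31) and Siglech (133, next 6.68). Spleen replicate 1 was the highest library for Csf1 (2.62, next 0). Spleen replicate 2 was the lowest library for Dusp1 (17.1, next 37.6) and Dusp5 (5.12, next 10.5). Spleen replicate 3 was the highest library for Dgka (409, next 362) and Lag3 (3.59, next 0). Spleen replicate 4 was the highest library for Adgrg1 (1.53, next 0) and Zfp683 (1.53, next 0). Spleen replicate 5 was the highest library for Cd74 (1925, next 1061), Cx3cr1 (31.3, next 10.2), Hspa5 (458, next 369.8), P2rx7 (25.1, next 4.60), Slc2a3 (50.2, next 33.8) and Trdc (107, next 32.3). It was also the highest for Zfp36 (163, next 128). Spleen replicate 5 was the lowest library for Jchain (18.8, next 100.4) and Tcf7 (257, next 357). In liver replicate 1 the lone counts behind several of these values are each worth 49.2 CPM.

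The difference between liver CXCR6pos and spleen differed between diets for 44 of the genes named (interaction term, edgeR's quasi-likelihood test, adjusted p under 0.05), given as the log2 difference on ND less that on CD-HFD. It was more positive on ND for Dapl1 (4.0), Klra9 (3.65), Tnf (3.44), S1pr5 (3.32), Ccr7 (2.78), Itga1 (2.53), Lgals3 (2.48) and Jun (2.47). Smaller differences of that sign were those of Il7r (2.36), Xcl1 (2.36), Fos (2.32), Nsg2 (2.13), Cd226 (1.98), S1pr1 (1.88), Tcf7 (1.83) and Gzmm (1.82). Smaller differences of that sign were those of Cmah (1.64), Lef1 (1.56), Ms4a4c (1.45), Klf2 (1.39), Satb1 (1.37), Klrk1 (1.31), Zfp36 (1.23) and Ppp1r15a (0.98). Smaller differences of that sign were those of Myc (0.95), Tbx21 (0.82), Klrd1 (0.73), Nfkbia (0.68), Btg2 (0.60) and Junb (0.50). It was more negative on ND for Ctla4 (-3.52), Havcr2 (-3.08), Prdm1 (-2.43), Pdcd1 (-1.95), Tox (-1.65), Eomes (-1.33), Cd27 (-1.10) and Sh2d2a (-1.06). Smaller differences of that sign were those of Runx3 (-0.95), Ccl5 (-0.84), Zap70 (-0.74), Prf1 (-0.69), Nkg7 (-0.68) and Cd3e (-0.68). The Dapl1 value rests on ND liver CXCR6pos replicates 5 and 6, at 576 and 332 CPM. The other ND liver CXCR6pos libraries were at 16.7 to 49.2 CPM and those on CD-HFD at 5.77 to 53.1 CPM.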

How the results depend on the processing

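No named gene that passed changed direction under any alternative run. Of 139 named genes that passed, 123 passed in every alternative that tested them other than the threshold of a 1.5-fold change, and 94 with it as well. Among genes described above as higher or lower, the replicate block also lost Ddit4, Traf1, Rpl10 and Mif. Having no filter on low counts lost Btla, Mif and Cd3e as well. Fitting only the groups compared or only the ND groups lost Il6ra, and keeping the identical spleen library lost Tigit. That threshold gave 148 higher and 53 lower genes, and 42 more positive and 7 more negative on ND, by its construction. With only these groups fitted and the replicate number as a block the comparison gave 301 higher and 274 lower, and the cause was not tested. The labels give the groups a shared number and nothing else: same-numbered liver and spleen libraries deviated with correlations from -0.005 to 0.034 over 5 pairs, and 0 libraries correlated best with their own number. DESeq2 gave 386 higher and 352 lower. Leaving out 1 library in turn gave from 396 to 480 higher and from 339 to 440 lower genes, and from 129 to 184 more positive and from 51 to 88 more negative on ND. Depth limits liver replicate 1, where 1 count is worth 49.2 CPM (the level of Csf1 there).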
